A study of Zea mays with 24 samples.

Results

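Transcript levels of unstressed cytTC221 seedlings were compared with those of unstressed cytT248 seedlings, across all genes that the array could measure. Both are cytolines of maize (Zea mays), that is, inbred lines that carry the same nucleus in different cytoplasms. The nucleus in both is that of the inbred line TC243 (Iowa Stiff Stalk Synthetic), while the cytoplasm comes from TC221, a European Flint line, in cytTC221 and from T248, a Lancaster line, in cytT248. The lines were made by repeated backcrossing with TC243 as the pollen donor, so a small remainder of the donor's nuclear DNA may be left, and it was not measured here. The 8 samples were chosen by their titles, 4 of cytTC221 control and 4 of cytT248 control (spelled cytTC248 in the titles), out of 24 in the series. The other groups are the same cytolines after 24 h at 40 °C, and TC243 in its own cytoplasm, control and heat-stressed, with 4 samples each. Control seedlings were grown for 21 days to the stage of 3 leaves, at 26 °C for 16 h of light and 20 °C for 8 h of dark. The study's methods name 3 seedlings per line harvested after heat, but 4 replicates for each line and condition. They do not say how the replicates correspond to plants, nor how many control plants were used. The p-values therefore measure the spread between these samples, which may be partly technical.

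Mitochondria and chloroplasts hold small genomes of their own, which in maize are inherited through the mother. Most organellar proteins are encoded in the nucleus, made in the cytosol and imported, so the 2 compartments must be kept in step. Signals that pass from the organelles to the nucleus and alter transcription there are called retrograde signalling, and cytolines are used to look at it because the nucleus is held constant while the organelles change. Well-known nuclear readouts are the alternative oxidases, which let electrons bypass part of the respiratory chain, and nuclear genes for photosynthesis.

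Each sample was hybridised to 1 one-colour array. All levels below are log2 intensities relative to the 75th percentile of the same array, so that 0 is the level of a bright probe and values near -5 lie at the background. Differences are cytTC221 minus cytT248 on the log2 scale, with the standard error (SE) of the limma fit. A gene is named as called, higher or lower where its Benjamini-Hochberg adjusted p over all 48216 genes tested was under 0.01. A probe is said to be detected on an array where the scanner software flagged it as well above its background, which was so for 38.9% to 42.7% of spots on the 8 control arrays. Correlations between arrays over all tested genes were 0.988 to 0.993 within cytTC221, 0.99 to 0.995 within cytT248 and 0.977 to 0.985 between the lines. All arrays of cytTC221 control lay at odd positions of their slides and all of cytT248 control at even positions, so position and line cannot be told apart, whereas 2 slides held an array of both lines. Leaves and stems of the seedlings were harvested together. Transcripts of the mesophyll genes pep1, pdk1 and lhcb6 and of a bundle sheath rbcS gene stood at or above the 99.8th percentile of all genes in level. Other markers of these cells stood lower, among them lhcb3 (90.9), me3 (86.4), lhcb5 (80.4) and a second rbcS ID (73.4). The mesophyll marker cab48 was undetected on every array. In all, 0 of 11 mesophyll and bundle sheath markers tested was called. The meristem gene kn1 was undetected on every array of both lines. Of the other meristem and stem markers, both histone H4 genes and the cyclin gene cyclin4, which mark dividing cells, were detected on all 8 arrays, with the histone genes at the 94.4 and 94.3 percentiles. The cyclin genes cyclin8 and cyclin9 were undetected on every array, and cyclin11 was detected on 1 array of cytTC221 and 2 of cytT248. Of 52 kernel protein genes, 47 were undetected on every array of cytTC221 and 49 on every array of cytT248. Of the 4 that could be tested 1 was higher, the zein gene z1C1_2 (0.53 ± 0.13), whose difference was -0.04 within 1 of the 2 slides that held both lines and whose call was lost without replicate 2 or 3 of cytTC221 or replicate 1, 2 or 4 of cytT248 (0.42 to 0.54).

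Of the 48216 genes, 4394 (9.11%) were called. In cytTC221, 2972 genes (6.16%) were higher and 1422 (2.95%) were lower than in cytT248. A fold over 2, a difference of more than 1 on the log2 scale, was reached by 948 genes (1.97%), of which 758 (1.57%) were higher and 190 (0.394%) were lower. The higher calls outnumbered the lower ones under the scaling used here, with a share of 67.6%, but that share was 50.5% after quantile normalization and 39.7% where the percentile was taken over all spots, which moved the median difference of all genes from 0.07 to -0.04. Among the genes with a fold over 2, higher calls stayed in the majority under both scalings, with 583 against 190 and 634 against 232. The arrays of the 2 lines did not overlap for 751 of the 758 higher genes and for all 190 lower genes. Within each of the 2 slides that held both lines, all 758 and all 190 kept their direction. These are the arrays on which the genes were chosen, so the counts are a description, beside 9990 of all 48216 genes with no overlap and 38117 and 37708 that kept their direction within the 2 slides.

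The 758 higher genes had a median level of -2.16 in cytTC221 and -3.68 in cytT248, and 87 of them were undetected on every array of cytT248, as were 5845 of all 48216 genes. The 190 lower genes had a median level of -3.81 in cytTC221 and -1.99 in cytT248, with 52 undetected on every array of cytTC221, as were 5101 of all genes. Over all genes the median level was -3.17 in cytTC221 and -3.29 in cytT248. The higher and the lower genes also differed in how well they are annotated. Of the 758 higher genes only 83 (10.9%) matched a current RefSeq gene, as against 56 (29.5%) of the 190 lower genes and 13872 (28.8%) of all genes tested. Among the 34344 genes with no RefSeq entry 1.97% were higher by a fold over 2, and among the 13872 with an entry 0.598% were. The genes with no entry had a lower median level, -3.63 against -2.1, and the part of level in this difference was not tested.

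**Figure D1:**
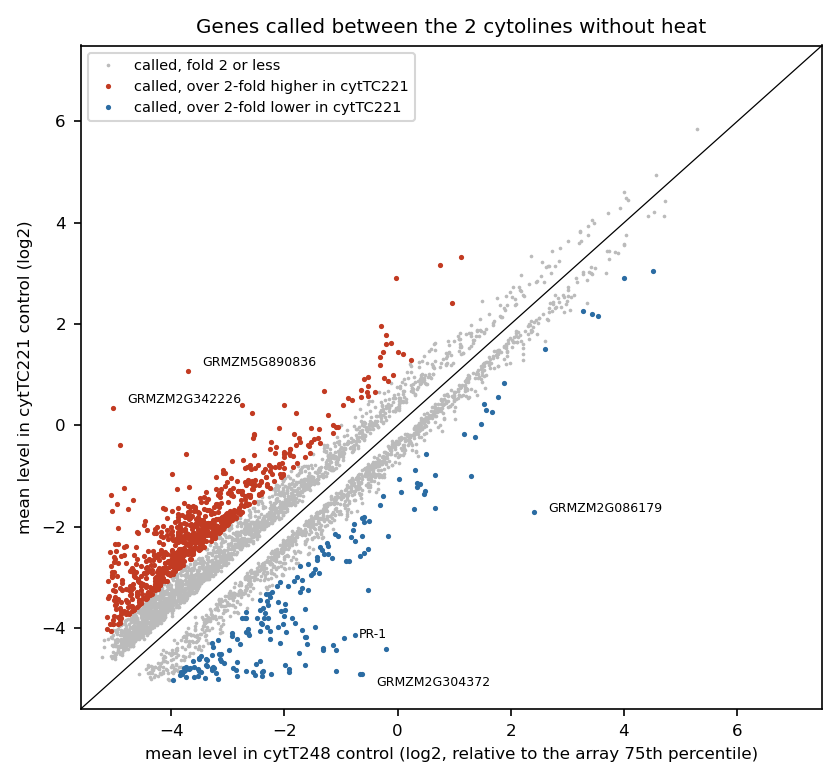
Mean level in cytTC221 control (vertical axis) against mean level in cytT248 control (horizontal axis), log2 relative to the array 75th percentile, for the 4394 called genes. Red points are the 758 genes over 2-fold higher and blue points the 190 genes over 2-fold lower in cytTC221, and the red points have a median of -3.68 in cytT248, beside -3.29 over all genes tested.

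The largest differences belonged to genes without an informative name, and several were close to presence in one cytoline and background in the other. GRMZM2G342226 had levels of 0.21, 0.51, 0.47 and 0.16 on the 4 arrays of cytTC221, against -5.22, -4.84, -5.24 and -4.79 on those of cytT248. It was undetected on every cytT248 array, so only a bound can be given, at least 37.5-fold higher in cytTC221 (adjusted p = 9.08e-19). GRMZM2G351382 had the same form, with -0.55, -0.31, -0.28 and -0.43 in cytTC221 and -5.03, -4.90, -5.06 and -4.64 in cytT248. Its bound was at least 21.5-fold higher in cytTC221, and those of GRMZM2G149089 and GRMZM2G079287 were at least 11.9-fold and 11.6-fold. Here a bound sets the mean of the brighter line against the lowest detected signal on the arrays of the dimmer one, or against the probe's own signal where that was higher. In all 4 genes TC243, which shares the nucleus, stood at background as cytT248 did, with means between -4.94 and -4.70. GRMZM5G890836 was different in this respect. Its levels were 1.14, 1.08, 0.99 and 1.05 in cytTC221 and -3.38, -3.80, -3.63 and -3.98 in cytT248, a difference of 4.76 ± 0.13 (SE), and TC243 stood with cytTC221 at 1.1 ± 0.03 (SD, n = 4).

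On the lower side GRMZM2G304372 had -5.09, -5.0, -5.03 and -4.48 in cytTC221 and -0.48, -0.88, -0.54 and -0.64 in cytT248, which is at least 17.9-fold lower. GRMZM2G138809 was at least 17.2-fold lower, with -5.01, -4.88, -4.93 and -4.77 in cytTC221 and -0.86, -0.56, -0.61 and -0.62 in cytT248. Both were undetected on every array of cytTC221. GRMZM2G126858, detected on all arrays of both lines, was lower by a difference of -4.20 ± 0.11 (SE). GRMZM2G086179 had -2.15, -1.49, -1.39 and -1.80 in cytTC221 and 2.31, 2.59, 2.16 and 2.6 in cytT248. For all 4 of these genes TC243 stood near cytT248, at -0.38, -0.71, -0.15 and 1.95 in the order named. Only 3 higher and 4 lower genes differed by more than 4 on the log2 scale, and 82 higher and 38 lower genes by more than 2.

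The gene lists below hold genes with an informative name. Of these 1855 were tested, with 135 (7.28%) called higher and 98 (5.28%) lower, against 6.16% and 2.95% of all genes. The shares of the lists are to be read against those of the named genes as well. Among the named genes the largest difference was that of a defence gene, and the 5 members of the defence list with a fold over 2 were all lower in cytTC221. PR-1 (GRMZM2G465226), a secreted pathogenesis-related protein used as a marker of salicylic acid responses, had -4.26, -4.25, -4.19 and -4.06 in cytTC221 and -1.29, -1.12, -0.50 and -0.85 in cytT248. The groups lay far apart, with a difference of -3.25 ± 0.14 (SE, adjusted p = 3.38e-14), and TC243 (-3.23 ± 0.23, SD, n = 4) was nearer to cytTC221. The beta-1,3-glucanase gene geb1 (GRMZM2G065585, also named pr6), whose product breaks down fungal cell walls, had -1.71, -1.51, -1.62 and -1.77 in cytTC221 and 0.12, 0.49, 0.21 and 0.32 in cytT248. For chiI (GRMZM2G145461), a chitinase gene, the values were -0.08, -0.32, -0.33 and -0.19 in cytTC221 and 1.30, 1.32, 1.44 and 1.44 in cytT248. TC243 lay between the cytolines for geb1 (-0.69) and for chiI (0.75). The cysteine protease gene mir2, related to a protease that protects maize against caterpillars, was lower by -1.23 ± 0.14, and Hm2, a homologue of the reductase that detoxifies the HC toxin of a leaf spot fungus, by -1.17 ± 0.12.

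Of the 26 tested members of the list of pathogenesis-related proteins, chitinases and proteinase inhibitors, 6 were lower (5 of them by a fold over 2) and 1 was higher, the cystatin gene cc6 (0.47 ± 0.11). The list median was -0.09, against 0.07 over all genes tested, of which 2.95% were called lower. Across the other scalings between 8 and 9 members were lower and 1 was higher. Diterpenoid phytoalexin genes were among the lower ones as well. CPPS2 (an2), which makes ent-copalyl diphosphate for the kauralexins, was detected on 1 of 4 arrays of cytTC221 and on all of cytT248, with a difference of -1.27 ± 0.14. KSL4, a kaurene synthase-like enzyme, was lower by -1.45 ± 0.09. Other terpenoid genes were higher: TPS20-Del (GRMZM2G084496), a terpene synthase, had 0.33, 0.06, 0.09 and 0.31 in cytTC221 and -1.26, -1.08, -1.43 and -1.13 in cytT248, and a second ID with this name was higher by 0.85 ± 0.09. The gibberellin gene an1 (0.38 ± 0.08) and the farnesyl diphosphate synthase gene fps (0.42 ± 0.10) were also higher. In all, 4 terpenoid genes were higher and 2 lower of 15 tested, that is 40.0% called, against 9.11% of all genes (6.16% higher and 2.95% lower).

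Benzoxazinoids, the indole-derived defence compounds of maize seedlings, and indole itself showed a split. Igl, whose product releases free indole, was higher in cytTC221 by 0.63 ± 0.07. The gene bx1, whose product makes the indole that enters the benzoxazinoid pathway, was lower by -0.60 ± 0.10, as was bx6, a dioxygenase of the same pathway, by -0.58 ± 0.11. The tryptophan synthase beta gene orp1 was lower by -1.20 ± 0.07, with -1.86, -1.82, -1.78 and -1.87 in cytTC221 and -0.59, -0.65, -0.61 and -0.67 in cytT248. Its 3 probes did not give 1 value, since they showed -1.90, -0.08 and -1.62. In all, 1 gene was higher and 3 were lower of 11 tested (36.4%, against 9.11% of all genes), with a list median of -0.03. The call of bx6 was lost when only the 8 control arrays were fitted.

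**Figure D2:**
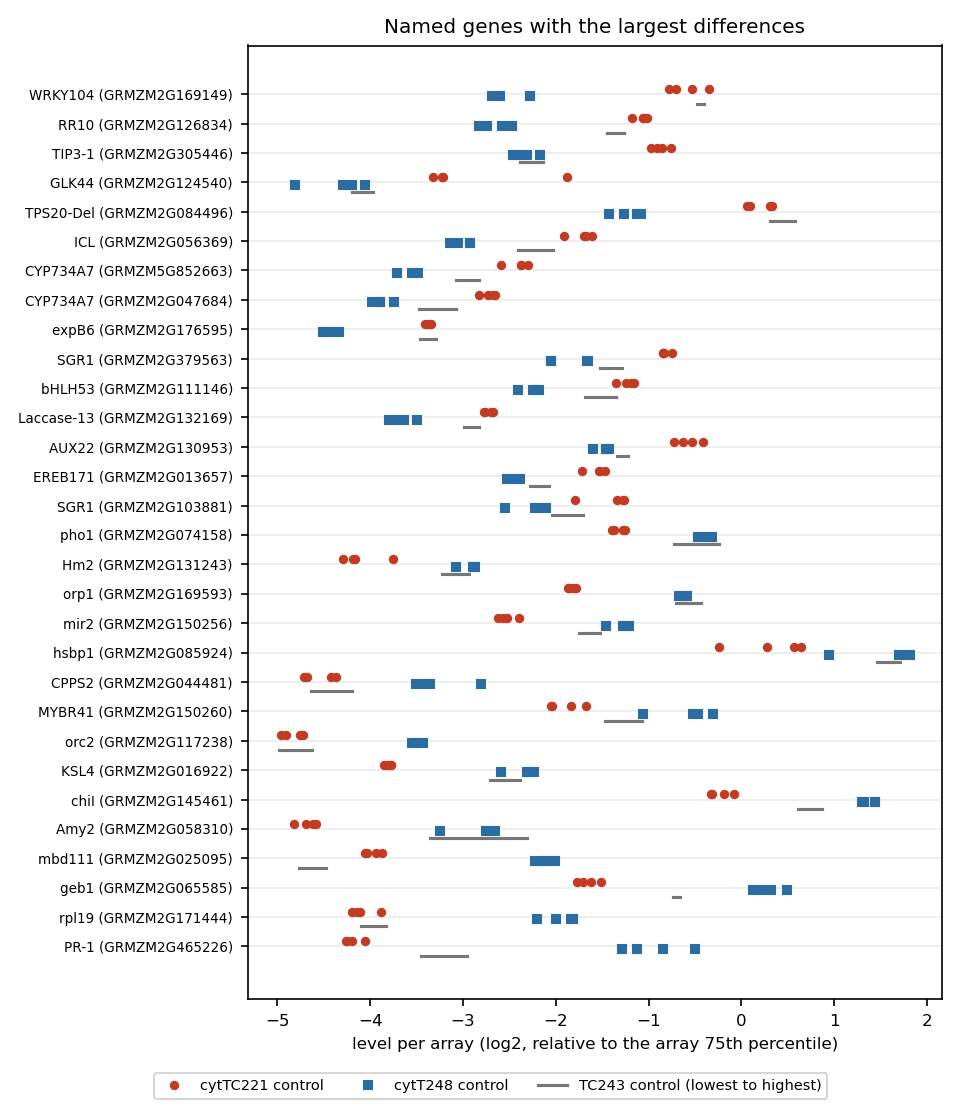
Level on each array (log2, relative to the array 75th percentile) of the named genes with the largest differences, 15 higher and 15 lower in cytTC221. Red circles are the 4 cytTC221 control arrays, blue squares the 4 cytT248 control arrays, and the grey line runs from the lowest to the highest of the 4 TC243 control arrays; the circles and squares of each gene do not overlap, and TC243 lies now with one cytoline and now with the other.

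WRKY104 (GRMZM2G169149), of the plant-specific WRKY family that regulates stress and defence genes, had -0.53, -0.70, -0.78 and -0.35 in cytTC221 and -2.60, -2.28, -2.61 and -2.69 in cytT248. It was higher by 1.96 ± 0.10 (adjusted p = 4.08e-13) and TC243 was at -0.45 ± 0.03 (SD, n = 4), within the range of cytTC221. Of 16 WRKY genes tested 5 were higher and 1, WRKY45 (-0.35 ± 0.09), was lower, with 4 to 5 higher and 1 lower across the other scalings, against 6.16% of all genes called higher and 2.95% lower. WRKY111 was higher by 0.36 ± 0.08, with the call lost without replicate 1 of cytTC221 or replicate 1, 2 or 4 of cytT248 (0.31 to 0.35), and the growth-regulating factor gene GRF1 (GRMZM2G034876) differed by 0.22 ± 0.09 and was not called (adjusted p = 0.125). RR10 (GRMZM2G126834), a response regulator of cytokinin signalling, had -1.18, -1.06, -1.06 and -1.02 in cytTC221 and -2.47, -2.74, -2.58 and -2.83 in cytT248, and both of its probes were higher. Within the cytokinin list the receptor gene HK1 was higher (0.40 ± 0.06), whereas the response regulator gene crr2 (-0.89 ± 0.09) and ciszog1 (-0.43 ± 0.10), which conjugates cis-zeatin to glucose, were lower, so that 2 of 24 genes went each way (16.7% called, against 9.11% of all genes). The call of ciszog1 was lost without any single replicate of cytTC221 or without replicate 2, 3 or 4 of cytT248 (-0.45 to -0.37). GLK44, a G2-like factor, was higher by 1.43 ± 0.22, but 1 of its cytTC221 arrays stood at -1.88 and the other 3 between -3.32 and -3.21, and without it the difference was 1.08. Its call was lost when only the 8 control arrays were fitted.

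Of 23 AP2/ERF genes, a family that includes the ethylene response factors, 5 were higher and 0 lower (21.7% called, against 9.11% of all genes), among them EREB171 (0.90 ± 0.07, with 3 of 3 probes called) and dbf1 (0.67 ± 0.06), which binds the dehydration-responsive element. The list median was 0.05, below that of all genes, and under the other scalings between 4 and 5 were higher and up to 2 lower. Of 37 auxin genes 8 were higher and 4 lower, against 6.16% and 2.95% of all genes. AUX22 (GRMZM2G130953, also BIF1), an Aux/IAA repressor, was higher by 0.91 ± 0.08 on all 4 of its probes, the auxin synthesis gene spi1 by 0.64 ± 0.11 and the response factor gene ARF3 by 0.57 ± 0.08. BIF4, another Aux/IAA repressor, was lower by -0.74 ± 0.10, and both IDs named PIN5a, an auxin carrier, were lower by -0.54. The bHLH53 gene, for a basic helix-loop-helix factor, was higher by 1.02 ± 0.11 on all 3 of its probes. Both IDs of CYP734A7, matched to the same RefSeq gene and in rice from a family that inactivates brassinosteroids, were higher by 1.16 ± 0.11 and 1.15 ± 0.10. The abscisic acid synthesis gene vp14 was higher by 0.79 ± 0.15.

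Cell wall genes were called in 1 direction. Of 31 tested, 10 were higher in cytTC221 and 0 were lower, with a median of 0.26 against 0.07 over all genes, where 6.16% were called higher. The beta-expansin gene expB6 (GRMZM2G176595), whose product loosens grass cell walls, had -3.34, -3.39, -3.41 and -3.36 in cytTC221 and -4.48, -4.41, -4.51 and -4.34 in cytT248. The other higher members were the alpha-expansin genes EXPA5 (0.67 ± 0.09) and expA4 (0.39 ± 0.07), the hydroxyproline-rich glycoprotein gene HRGP (0.85 ± 0.11), the polygalacturonase gene ExoPG (0.68 ± 0.12), the xyloglucan endotransglucosylase gene xth1 (0.46 ± 0.09) and 4 cellulose synthase genes (CesA-7, CesA13, CesA12 and CesA-5) with differences between 0.44 and 0.61. Under the other scalings 8 to 10 were higher and 0 lower. In lignin synthesis, 5 genes were higher and 1 lower of 15 (40.0% called, against 9.11% of all genes). The higher ones were ccoaomt1, the cinnamoyl-CoA reductase gene ccr2 (0.46 ± 0.08) and 3 laccase IDs, which couple monolignols into the polymer, with GRMZM2G132169 (Laccase-13) at 0.94 ± 0.10. The laccase gene lac3 was lower by -0.65 ± 0.16, but not called without any single replicate of cytTC221 or without replicate 2 or 4 of cytT248 (-0.69 to -0.45). The same held of a second Laccase-13 ID (GRMZM2G336337), undetected on every cytT248 array and at least 1.45-fold higher in cytTC221, without replicate 1, 3 or 4 of cytTC221 or 1, 2 or 3 of cytT248 (0.48 to 0.57).

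Genes of water, sugar and pigment metabolism included several of the larger changes. TIP3-1 (GRMZM2G305446), a water channel of the vacuolar membrane, had -0.76, -0.91, -0.86 and -0.97 in cytTC221 and -2.42, -2.17, -2.46 and -2.31 in cytT248. It was the only higher gene of 20 aquaporins tested, of which 1 other, pip (-0.46 ± 0.08), was lower. Of all genes 6.16% were called higher and 2.95% lower, and of the named genes 7.28% and 5.28%. Under the other scalings 1 aquaporin gene was higher and between 1 and 5 were lower. The isocitrate lyase gene ICL, of the glyoxylate cycle that turns fat into sugar, was higher by 1.29 ± 0.10. Amy2 (GRMZM2G058310, also named BMY1 and amyb5), a beta-amylase gene, was undetected on every cytTC221 array and at least 3.43-fold lower there. The cell wall invertase gene incw1 was also lower, by -0.92 ± 0.21, with the call lost without replicate 2 or 4 of cytTC221 or replicate 1 or 3 of cytT248 (-0.90 to -0.71). Both IDs of SGR1, matched to the same RefSeq gene and coding for the stay-green enzyme that removes magnesium from chlorophyll, were higher. GRMZM2G379563 had -0.85, -0.75, -0.83 and -0.85 in cytTC221 and -2.05, -1.66, -1.65 and -2.05 in cytT248, and GRMZM2G103881 was higher by 0.85 ± 0.13.

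Nuclear genes that serve the organelles were called in shares on both sides of the 9.11% of all genes. Among named genes, from which these lists are drawn, 7.28% were called higher and 5.28% lower. The share was 57.1% of the 7 tested in organelle protein import and thylakoid targeting, 13.3% of the 15 carriers, chaperonins and dehydrogenases of mitochondria, 10.3% of the 29 organelle RNA proteins, 8.70% of the 23 C4 and Calvin cycle genes and 4.35% of the 23 photosystem genes. Of the 3 alternative respiration genes, aox3 was lower in cytTC221 by -0.64 ± 0.13 (adjusted p = 0.000977), with -3.31, -3.50, -3.54 and -3.21 in cytTC221 and -3.09, -2.50, -2.47 and -2.95 in cytT248. Within the slides that held both lines its difference was -0.22 and -0.74, and its call was lost when only the 8 control arrays were fitted. A second alternative oxidase gene, Aox (GRMZM2G125669), differed by 0.25 ± 0.09 (adjusted p = 0.0688) and the uncoupling protein gene PUMP by -0.01 ± 0.11 (adjusted p = 0.985), and neither was called. Of 23 nuclear genes for photosystems, light harvesting and electron transport 1 was called, psat1 at -0.32 ± 0.08, and not without replicate 1 or 4 of cytTC221 or replicate 2, 3 or 4 of cytT248 (-0.32 to -0.25). Of 23 C4 and Calvin cycle genes 1 was higher, Pep1 (GRMZM5G899080, 0.48 ± 0.12), and 1 was lower, PPCK1 (-0.70 ± 0.09), the kinase that activates phosphoenolpyruvate carboxylase. The ID of Pep1 differs from that of the mesophyll marker pep1 (GRMZM2G083841), which was not called (-0.09, adjusted p = 0.726). Among 7 genes of organelle protein import and thylakoid targeting, 4 were lower and 0 higher, namely TATA (-0.70 ± 0.16) and TATC (-0.33 ± 0.07) of the twin-arginine pathway into the thylakoid and the thylakoid proteases FtsH2A and FtsH2B. Organelle RNA proteins had 3 lower and 0 higher of 29 (hcf60, crp1 and CFM3, the last a splicing factor of the chloroplast), and between 3 and 10 lower across the other scalings. Of 15 mitochondrial carriers, chaperonins and dehydrogenases, ANT-G2, an adenine nucleotide translocator, was higher (0.43 ± 0.05) and CPN60II, a chaperonin, lower (-0.60 ± 0.13). Leaving out 1 array ended several of these calls. CPN60II was not called without replicate 1 of cytTC221 (-0.45) or of cytT248 (-0.53), nor TATA without replicate 2 of cytT248 (-0.66). The levels of TATA in cytTC221 were -2.79, -2.62, -2.59 and -3.69, and without the last of these arrays, replicate 4, its difference was -0.44. Its 2 probes gave -1.12 and -0.27, and neither was called by itself. For FtsH2A these were replicates 3 and 4 of cytTC221 and 1, 2 and 4 of cytT248 (-0.31 to -0.24), for hcf60 replicates 1, 2 and 3 of cytTC221 and 2 of cytT248 (-0.36 to -0.32), and for CFM3 replicate 2 of cytTC221 and 2 and 4 of cytT248 (-0.33 to -0.28). Pep1 was not called without any single replicate of cytTC221 or without replicate 2 or 4 of cytT248 (0.35 to 0.50).

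Cytosolic translation genes had 6 lower and 0 higher of 38, that is 15.8% called, against 2.95% of all genes lower and 6.16% higher. The largest was rpl19 (GRMZM2G171444), for a protein of the large ribosomal subunit, with -4.11, -4.19, -4.14 and -3.88 in cytTC221 and -2.20, -1.84, -2.0 and -1.82 in cytT248. The other 5, arpp2a-3, arpp1a, RPS27A, rpl10 and rpl32, were lower by differences between -0.58 and -0.29. Heat shock proteins, measured here without heat, had 3 lower (HSP90-1 at -0.69 ± 0.08, HSP90-2 at -0.47 ± 0.08 and hsp1 at -0.32 ± 0.07) and 1 higher (hsp22 at 0.68 ± 0.15) of 30 (13.3% called). Of these hsp22 was not called without replicate 2 or 3 of cytTC221 (0.60 in both cases), nor hsp1 when only the 8 control arrays were fitted. The small heat shock gene hsp18 was undetected on every array of both lines. Of 61 histone and chromatin genes 3 were called (4.92%, against 9.11% of all genes). The largest of them was mbd111 (GRMZM2G025095), for a methyl-CpG-binding domain protein, lower by -1.86 ± 0.10 on all 5 of its probes. The replication gene orc2, for a subunit of the origin recognition complex, was undetected on every cytTC221 array and at least 2.33-fold lower. Also lower were the MYB-related gene MYBR41 (-1.31 ± 0.15), pho1 (-0.94 ± 0.08) and GRMZM2G085924 (-1.25 ± 0.18), which RefSeq lists under the names hsbp1 and SBP1.

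Transcripts of the mitochondrial genome itself were slightly more abundant in cytTC221. Of 24 mitochondrial genes that the study's annotation lists, 19 could be tested and all 19 had a positive difference, against a median of 0.07 over all genes. Genes of 1 organelle share their RNA pool and are not independent. The mean of the 19 genes was -1.93, -1.68, -1.69 and -1.83 on the cytTC221 arrays and -2.24, -2.07, -2.17 and -2.03 on the cytT248 arrays, so the lines did not overlap. The averages were -1.78 ± 0.12 in cytTC221 and -2.12 ± 0.09 in cytT248 (SD, n = 4 each), and the difference of 0.34 had an exact two-sided permutation p of 0.0286, the smallest that 4 arrays against 4 can give. On the slides that held both lines it was 0.31 and 0.34. Without replicate 1 or 3 of cytT248 the p was 0.0571, with differences of 0.31 and 0.33. Under the other normalizations, signals and filters this difference lay between 0.24 and 0.40. TC243 was between them at -1.92 ± 0.1.

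By single gene, 4 of the 19 (21.1%) were called and all were higher, against 6.16% of all genes called higher. They were nad3 (0.53 ± 0.11), nad4 (0.48 ± 0.08) and nad5 (0.46 ± 0.09), for subunits of complex I, and rps7 (0.53 ± 0.12), for a mitochondrial ribosomal protein. For nad4 the levels were 0.79, 0.75, 0.84 and 0.55 in cytTC221 and 0.27, 0.18, 0.28 and 0.27 in cytT248. Under the other scalings 2 to 4 of the 19 were called. The call of rps7 was lost without replicate 2 or 3 of cytTC221 or replicate 1 or 3 of cytT248 (0.45 to 0.50), and that of nad3 without replicate 3 of cytTC221 (0.48). The largest difference, that of the cytochrome c maturation gene ccmFN (0.88 ± 0.43), was not called (adjusted p = 0.189), and neither was rps12 (0.60 ± 0.18, adjusted p = 0.0277). The smallest were those of the open reading frames orf114-b (0.07 ± 0.08) and orf109-b-ct (0.06 ± 0.14).

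**Figure D3:**
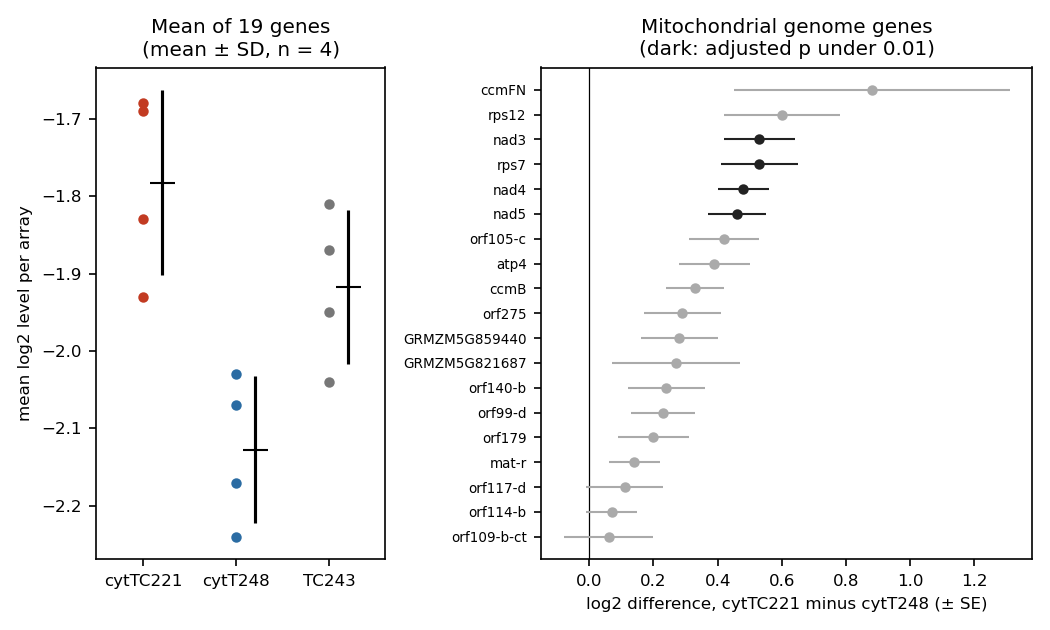
Left, mean log2 level per array of the 19 tested mitochondrial genome genes in cytTC221, cytT248 and TC243 control, with mean ± SD (n = 4). Right, the log2 difference of each gene, cytTC221 minus cytT248, with its SE; all 19 lie above 0 and the 4 dark points, nad3, rps7, nad4 and nad5, had an adjusted p under 0.01.

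The heat-stressed arrays of the same cytolines are separate samples and give the same contrast a second time, under other conditions. After heat 4540 genes (9.42%) were higher and 15919 (33.0%) lower in cytTC221, with a median of -0.23 over all genes. Of the 758 genes higher without heat, 121 (16.0%) were also higher after it, 323 (42.6%) were lower and 314 were not called. Of the 190 lower genes 141 (74.2%) were lower after heat, 5 were higher and 44 were not called. The shares are to be read against the 9.42% and 33.0% of all genes. A fold over 2 after heat was reached by 75 of the 758 in the higher and 51 in the lower direction, and by 1 and 79 of the 190, against 0.666% and 3.74% of all genes. The change of the contrast itself, tested as an interaction, was called for 702 (92.6%) of the 758 and for 122 (64.2%) of the 190, beside 34.9% of all genes. The control difference that chose these genes is part of that term, so nothing is read from these shares. Positions on the slides were exchanged after heat, with cytTC221 at even and cytT248 at odd positions.

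Named genes followed both courses. RR10 kept its difference (1.57 without heat and 1.30 after), as did rpl19 (-2.11 and -1.72), geb1 (-1.94 and -2.26) and orp1 (-1.20 and -0.97). The differences of mbd111 and mir2 were larger after heat, at -4.11 and -3.12. WRKY104 differed by 0.16 ± 0.10 after heat, with 0.25 in cytTC221 and 0.09 in cytT248, and chiI by -0.21. The contrast turned round for ICL (-1.14 after heat), TIP3-1 (-0.59), expB6 (-0.36), pho1 (0.39) and Hm2 (0.47), all called in both conditions. The value of expB6 lies close to the median of all genes after heat (-0.23), and the values after heat were not tested under other scalings. For PR-1 the difference was -0.44 after heat, with -4.10 in cytTC221 and -3.66 in cytT248. Among the genes without a name, GRMZM2G342226 (4.37 after heat), GRMZM2G351382 (3.72), GRMZM2G138809 (-5.54) and GRMZM2G126858 (-5.09) had these measured differences, while GRMZM2G086179 stood at 0.09 and GRMZM2G079287 at 0.41. Of the 10 cell wall genes higher without heat, 2 were higher and 5 lower after it, beside 17.6% and 38.6% of all 2972 genes called higher without heat. The median of the 31 cell wall genes after heat was -0.23, the same as over all genes. The mitochondrial mean after heat was -0.95 in cytTC221 and -0.79 in cytT248, a difference of -0.16 (exact two-sided permutation p = 0.114).

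**Figure D4:**
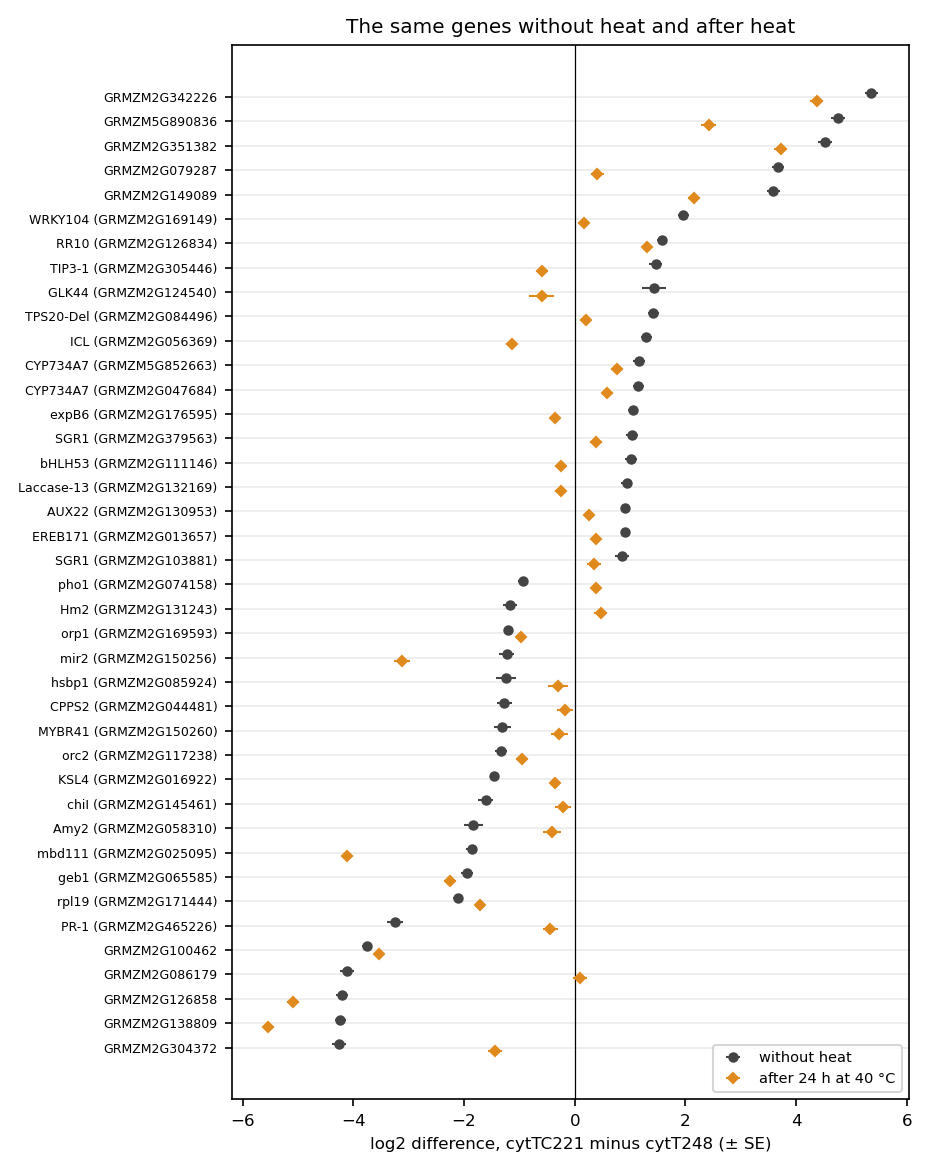
Log2 difference, cytTC221 minus cytT248, with its SE, for the named genes with the largest differences and the 5 largest unnamed ones in each direction; dark circles are control seedlings and orange diamonds seedlings after 24 h at 40 °C. RR10 and geb1 stay on their side at a similar size, and GRMZM2G138809 stays on its side and is lower still after heat. WRKY104 and GRMZM2G086179 come close to 0, and ICL and TIP3-1 change side.

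TC243 control, which was not used to choose genes, stood now with one cytoline and now with the other. Of the 758 genes higher in cytTC221, TC243 was nearer in level to cytT248 for 585 and nearer to cytTC221 for 173, and for 648 it lay between the cytolines. Of the 190 lower genes it was nearer to cytT248 for 123 and nearer to cytTC221 for 67. Over all 48216 genes TC243 was nearer to cytT248 for 19996 and nearer to cytTC221 for 28220, and for 14847 it lay between. The examples above show both, with TC243 at the cytTC221 level for WRKY104, TPS20-Del and expB6 and at the cytT248 level for TIP3-1, orp1 and pho1.

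Some of the genes with a fold over 2 were neighbours. Along the chromosomes of the RefSeq assembly Zm-B73-REFERENCE-NAM-5.0, 13553 tested genes could be put in order, and 136 of them (1.00%) had a fold over 2. Of 13363 windows of 20 consecutive genes 11207 held none, and 48 held 4 or more, a minimum set after the values were seen, so the genes named here were chosen by their values. These windows fell into 4 runs of genes, on chromosomes 4, 5, 6 and 1. The run on chromosome 5 held 9 such genes among 23, with 16 called. They were 6 lower genes, among them rpl19 (-2.11), orc2 (at least 2.33-fold lower), GRMZM2G171406 (-1.66) and GRMZM2G031952 (-1.54), and 3 higher ones, GRMZM2G110541 (1.54), GRMZM5G868047 (1.22) and GRMZM2G169458 (1.09). In all 9 TC243 was nearer to cytTC221 than to cytT248, although GRMZM2G169458 had -1.58 in cytTC221, -2.66 in cytT248 and 0.20 in TC243, above both. In the runs on chromosomes 4 and 6 it was cytTC221 that stood apart. On chromosome 6, 6 of 19 genes had a fold over 2, with mir2 (-1.23) lower and GRMZM2G145583 (1.32) higher. The other 4 were undetected on every cytTC221 array and lower there by at least 17.9-fold (GRMZM2G304372), 12.6-fold (GRMZM2G100462), 4.06-fold (GRMZM2G128560) and 1.94-fold (GRMZM2G150209), and TC243 was nearer to cytT248 in all 6. On chromosome 4, 4 of 19 were lower, GRMZM2G138809 (at least 17.2-fold), GRMZM2G142157 (at least 4.59-fold), GRMZM2G049185 (-1.33) and orp1 (-1.20), again with TC243 nearer to cytT248 in all 4. On chromosome 1, 3 of 19 genes were higher and 1 lower, and TC243 was nearer to cytTC221 for 1 of the 4. After heat the same direction was called for all 4 genes on chromosome 4, all 6 on chromosome 6, 6 of 9 on chromosome 5 and 3 of 4 on chromosome 1. For comparison, 74.2% of all 190 lower and 16.0% of all 758 higher genes with a fold over 2 were called in the same direction. Of all genes tested 33.0% were lower after heat and 9.42% higher. Neighbouring genes are not independent of each other, and whether these runs carry donor sequence was not tested.

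**Figure D5:**
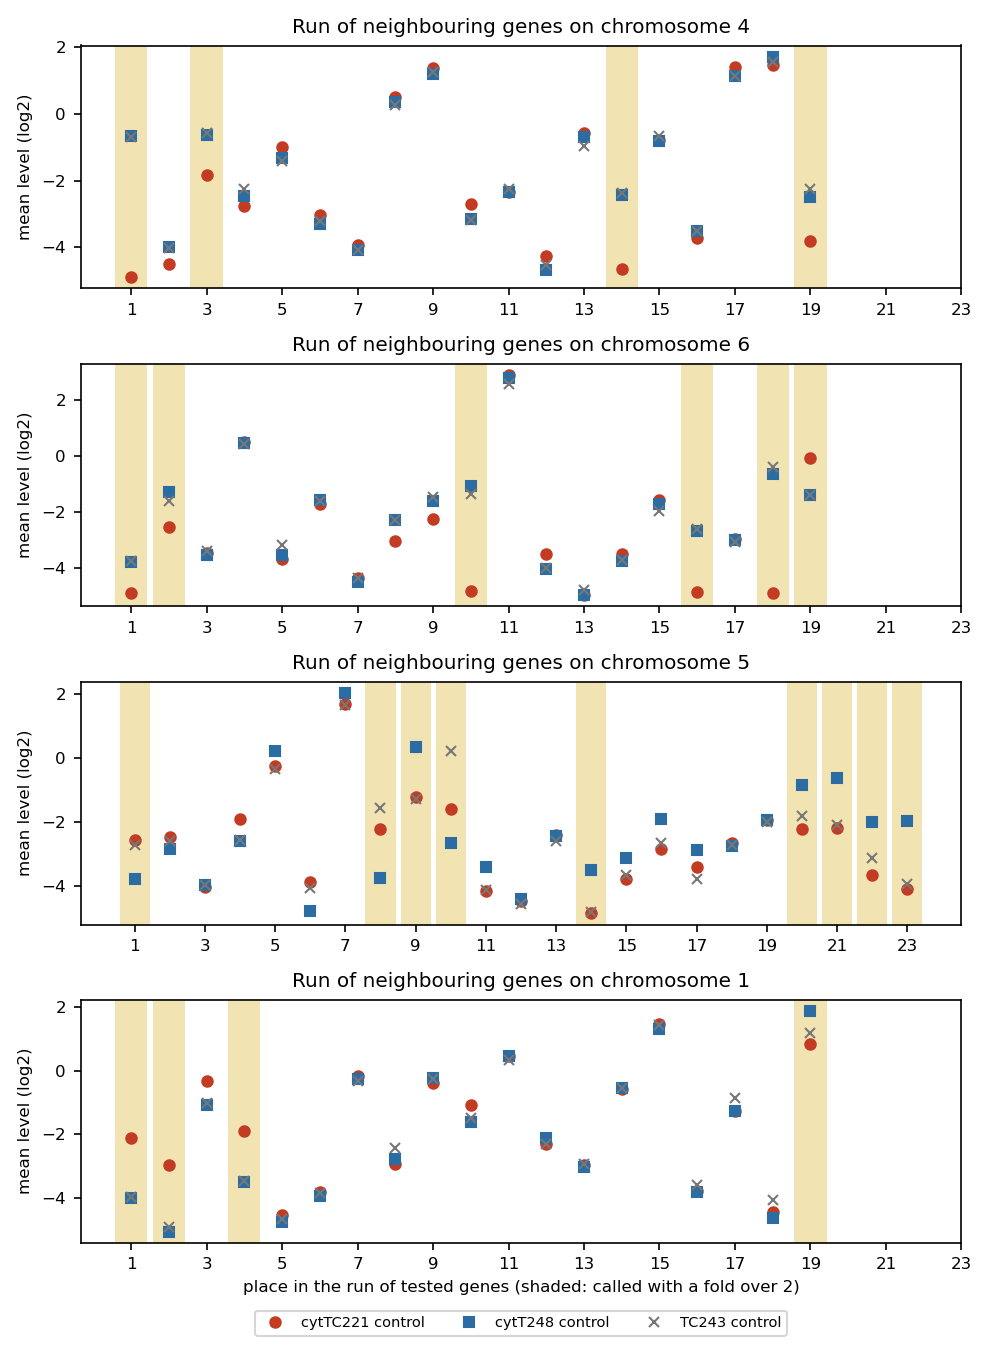
Mean level (log2, relative to the array 75th percentile) of each tested gene along the 4 runs of neighbouring genes, in cytTC221, cytT248 and TC243 control, by place in the run; shaded genes had a fold over 2. On chromosomes 4 and 6 the TC243 marks lie close to those of cytT248 at all shaded genes, and on chromosome 5 they lie nearer to those of cytTC221.

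Several genes in these runs had probes that gave different values. GRMZM2G100462 was measured by 4 probes, of which 3 gave -5.22 to -4.99 and the other 0.19 ± 0.10 (adjusted p = 0.25). The probes of GRMZM2G142157 gave -4.40 and -0.05, and those of GRMZM2G171406 gave -2.76 and -0.56. In GRMZM2G004847, on chromosome 5, they were called in opposite directions, at -4.46 and 1.33, so the mean of -1.56 describes neither. Over all genes with more than 1 probe such opposite calls occurred in 5 of 9201. For 30 of the 37 higher and 28 of the 37 lower genes with a fold over 2 and more than 1 probe, all probes were called in the direction of the gene. Over all 9201 genes with more than 1 probe this held for 266. The genes with a fold over 2 were chosen on the mean of the same probes, so these counts are a description. Which probes report the whole transcript was not tested.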

How the data were processed

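Per the labels and the file headers, 1 one-colour Agilent 4x180k array per sample was scanned by the authors with Agilent Feature Extraction 11. The deposited scanner files hold spot intensity. The authors' series table holds log2 values that share 1 distribution within each line, and its values were used only as an alternative.

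The median signal of each spot was background-corrected by normexp (offset 50) and log2-transformed, and the array's 75th percentile over the 46955 spots detected on all 24 arrays was subtracted. A probe was kept if every array of 1 or more of the 6 groups detected it, 95 with an outlier spot were left out, and the 64428 others (of 133671) were averaged per gene, which left 48216 of 107027 gene IDs. All 6 groups of 4 arrays were fitted together with limma 3.58.1 in R 4.3.3 (lmFit and eBayes, 18 residual degrees of freedom) with Benjamini-Hochberg adjustment, and the fit was tested on simulated data. The number of arrays limits the precision.

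Array IDs were matched to RefSeq (Zm-B73-REFERENCE-NAM-5.0) through synonyms: 13872 tested genes matched 1 entry and 1855 an informative name. IDs that matched several were left unnamed, and no coordinates are printed since the array's build differs; only the order of genes on that assembly was used. Roles are textbook background. Named genes are the 15 with the largest differences in each direction among called genes with an informative name and no overlap between arrays, the 5 largest of all called genes, up to 4 of each list and a few fixed genes. The reference holds no descriptions, so names stood in for them. The members and lists were chosen with earlier results of these data known. For 2 samples the replicate number in the title was kept where the source name gave another. Alternatives were other scalings, signals and filters, blocks and leaving out each array.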

Additional observations from a re-analysis of the deposited data

Results flagged for a closer look

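On single arrays, 132 groups of 4 arrays were tested by Dixon's test, over 65 genes and the mitochondrial mean. Of these 8 held a value far from the other 3, and chance alone gives about 1 in 20. In cytTC221 control these were GLK44 in replicate 1 (-1.88), SGR1 (GRMZM2G103881) in replicate 1 (-1.79), GRMZM2G304372 in replicate 4 (-4.48) and the mitochondrial gene orf117-d (GRMZM5G874394) in replicate 4 (-4.13). In cytT248 control they were Hm2 in replicate 1 (-3.07), Amy2 in replicate 2 (-3.25), GRMZM2G085924 (hsbp1) in replicate 2 (0.94) and the mitochondrial gene nad4 (GRMZM5G804358) in replicate 2 (0.18).

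For 44 of the 65 genes the difference between the cytolines itself differed between control and heat-stressed seedlings, by the interaction term of the limma fit at an adjusted p under 0.01 (34.9% of all genes tested did). Most of the 65 were chosen by the control difference, which is part of that term, so nothing is read from their share. The values below are the control difference minus the difference after heat, log2.

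Among the genes higher in cytTC221 control the change was 0.52 for EREB171, 0.56 for CYP734A7 (GRMZM2G047684), 0.65 for AUX22, 0.65 for SGR1 (GRMZM2G379563), 1.19 for Laccase-13, 1.22 for TPS20-Del, 1.27 for bHLH53, 1.42 for expB6, 1.80 for WRKY104, 2.03 for GLK44, 2.05 for TIP3-1 and 2.43 for ICL. Among the unnamed genes it was 0.80 for GRMZM2G351382, 0.99 for GRMZM2G342226, 1.43 for GRMZM2G149089, 2.34 for GRMZM5G890836 and 3.26 for GRMZM2G079287. All of these differences were smaller after heat or on the other side of 0.

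Among the genes lower in cytTC221 control the change was -0.94 for GRMZM2G085924 (hsbp1), -0.96 for aox3, -1.03 for MYBR41, -1.09 for CPPS2, -1.10 for KSL4, -1.33 for pho1, -1.40 for chiI, -1.43 for Amy2, -1.64 for Hm2, -2.80 for PR-1, -2.82 for GRMZM2G304372 and -4.22 for GRMZM2G086179. The sign was the opposite for mbd111 (2.25), mir2 (1.88), GRMZM2G138809 (1.30) and GRMZM2G126858 (0.89), which were lower still after heat. The alternative oxidase gene Aox, not called in control seedlings, changed by -0.78, with a difference of 1.03 after heat.

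Of the mitochondrial genome genes, 10 changed: GRMZM5G804358 (nad4) by 0.46, GRMZM5G825253 (orf105-c) by 0.54, GRMZM5G833299 (orf275) by 0.67, GRMZM5G845024 (orf99-d) by 0.87, GRMZM5G851769 (mat-r) by 0.42, GRMZM5G859440 by 0.65, GRMZM5G874394 (orf117-d) by 0.54, GRMZM5G881135 (rps12) by 0.95, GRMZM5G884912 (atp4) by 0.62 and GRMZM5G890451 (rps7) by 0.68. In all 10 the sign was the same, a more positive difference without heat. The array as a whole moved to the same side, with a median difference over all genes of 0.07 without heat and -0.23 after it. The shared sign is therefore not particular to the mitochondrial genes.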

How the results depend on the processing

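The count of calls stayed within 1.5 times of 4394 under all settings but the replicate block, and in fits of whole genes no call turned round except 1 under the filter that keeps probes detected on all 24 arrays. The split by direction depended on scaling. Quantile normalization gave 2581 lower calls and 2631 higher, and the 75th percentile over all spots gave 3449 lower and 2274 higher. A median in place of the percentile, chosen after seeing the data, gave 61.4% higher calls. The scanner's processed signal gave 1758 genes with a fold over 2 (1388 higher, 370 lower). Without a filter on dim probes 848 genes were lower. Under the filter on detection on all 24 arrays 27840 genes were tested, with 1898 higher and 548 of a fold over 2 (477 higher, 71 lower). Of the 948 genes with a fold over 2, 539 kept call and direction under that filter and 916 to 948 under each of the other settings. Leaving out 1 array gave 3462 to 3917 calls, 2361 to 2801 higher and 1098 to 1286 lower, with 927 to 979 of a fold over 2 (731 to 787 higher, 184 to 204 lower). The mitochondrial mean then differed by 0.31 to 0.39 and lost its call (exact permutation p = 0.0571) without replicate 1 or 3 of cytT248.

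Single genes that turned round were GRMZM2G004847 (1.33) and GRMZM2G100462 (0.19) when each probe was fitted by itself, and z1C1_2 (GRMZM2G388461, -0.04) within slide 4. Of 150 named or listed genes called, 74 kept their call in every setting. When only the 8 control arrays were fitted, aox3, bx6, GLK44, ZCN26, hsp1, GI, opr5, incw1, lac3, TATA and CPN60II were among those that lost it, aox3 also under the replicate block.

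Replicate numbers are shared by the groups, but same-numbered arrays did not deviate together (correlations 0.1, -0.04, -0.02 and 0.1, with 3 of 8 arrays nearest to their own number), so they were not taken as pairs. A fit of the 8 control arrays with a replicate block gave 2411 calls (1767 higher, 644 lower) and 920 with a fold over 2. Slide as a random block (correlation 0.044) gave 4506 calls.

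Signals near background limit the rest, since for 87 higher and 52 lower genes with a fold over 2 only a bound can be given.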

Other observations

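The counts and shares of calls below stand beside 9.11% of all genes, and beside 7.28% called higher and 5.28% lower among named genes. Of 40 jasmonate and lipoxygenase genes 1 was higher (lox3, 0.45 ± 0.08) and 1 lower (opr5, -0.24 ± 0.06). The call of opr5 was lost when any 1 of the 8 arrays was left out (-0.25 to -0.22). Of 18 antioxidant enzyme genes 0 were higher and 1 lower (5.56%). Of 40 MYB genes 4 were higher, with Myb36 (0.77 ± 0.11) and MYB61 (0.74 ± 0.13) the largest, and 3 lower (17.5%). Of 44 ion and nutrient transport genes 3 were higher and 5 lower (18.2%), among them the sodium transporter gene HKT1, undetected on every cytT248 array and at least 1.66-fold higher in cytTC221, the phosphate transporter gene pht2 (-0.92 ± 0.10) and the iron uptake gene ys1 (-0.50 ± 0.10), the last in the run of neighbours on chromosome 5. Of 20 glutathione S-transferase genes gst42 was undetected on every cytT248 array and at least 1.53-fold higher in cytTC221, and GST26 (-0.91 ± 0.09) and gst30 (-0.70 ± 0.11) were lower.

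Genes of light perception, the circadian clock and flowering had 4 higher and 0 lower of 21 tested (19.0%). They were GI (0.28 ± 0.06), which acts in the clock, conz1 (0.45 ± 0.08), a relative of CONSTANS, and the FT-like genes ZCN11 (0.57 ± 0.09) and ZCN26 (0.63 ± 0.11). The levels of ZCN11 were 0.80 in cytTC221, 0.23 in cytT248 and -0.82 in TC243, and those of ZCN26 were 1.71, 1.08 and 0.78 in the same order. Without replicate 1 of cytT248 GI was not called (0.24), nor was ZCN26 when only the 8 control arrays were fitted. Where the percentile was taken over all spots, 3 were higher and 4 lower.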
